A study of Mus musculus with 12 samples.

Results

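The comparison of day 30 transgenic with non-transgenic stomach antrum was made on 6 of the 12 arrays of the series, 3 mice a side. The arrays were chosen by their titles alone, and 22067 of the 46116 probes on the array, those with a signal above 100 on at least 3 of the 12 arrays, were compared. The day 30 mice carried the CEA424-SV40 T antigen transgene, in which a short promoter taken from the human CEA gene drives the SV40 T antigens, and their antra were taken at 30 days as tumour together with the normal tissue around it. The control mice were wild type, their normal antra were taken from the same region, and their labels give an age of 2 to 6 months. Both groups had the C57Bl/6 background. By the labels the day 30 mice were thus younger than the controls, whereas the study's text calls the controls littermates and a legend gives them the oldest age, so the controls' age is uncertain. If the labels hold, age and transgene cannot be told apart. Total RNA of each mouse was amplified into biotinylated cRNA and hybridised to 1 array of a Sentrix Mouse-6 Expression BeadChip, on which each probe reports the brightness of 1 transcript. Signals below are background-corrected, quantile-normalised intensities on a linear scale, differences are on the log2 scale with the standard error (SE) of the fit, and values of a group are always given in the order mouse 1, mouse 2, mouse 3. Only signals of the same probe can be compared, since brightness differs between probes.

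Endocrine cells of the gastric and duodenal epithelium store peptide hormones and amines in dense-core granules and release them by regulated exocytosis, and acidic granins such as chromogranins and secretogranins are the bulk proteins of those granules. The SV40 large T antigen binds the retinoblastoma proteins and p53, which frees E2F transcription factors and drives cells into DNA replication. The mouse stomach also has a squamous, cornified forestomach that adjoins the glandular part, and the antrum ends at the pylorus beside duodenum and pancreas. In whole tissue, fewer cells of a type and less RNA per cell cannot be told apart.

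The transgene itself was measured by 3 probes that carry the virus name. The large T antigen probe read 69.1, 72.3 and 67.5 in the controls and 80.1, 126.5 and 93.4 in the day 30 mice, a log2 difference of 0.50 ± 0.18 (SE, n = 3 and 3, limma adjusted p = 0.999). All 3 day 30 mice lay above all controls, mouse 2 had the highest value, and only that value passed the signal limit of 100, so no fold is given. In the intensities before normalisation the same probe read 99.9, 101.9 and 102.4 in the controls and 108.4, 141.2 and 94.5 in the day 30 mice. There mouse 3 lay below every control, but its array was also the dimmest of the 6. Its median before normalisation was 92.1, against 118.7 to 127.1 in the controls. The probe shared by both T antigens read 79.2, 76.2 and 79.5 in the controls against 83.0, 113.3 and 77.8, and the groups overlapped. A small t antigen probe stayed below the limit on every one of the 6 arrays, with 65.1, 66.7 and 62.5 in the controls and 54.3, 57.1 and 52.6 in the day 30 mice. Day 30 mouse 2 thus had the clearest transgene signal, and at mice 1 and 3 these probes gave little to check the labels with.

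No probe differed between the groups at an adjusted p below 0.05 in limma's test (0 of 22067, or 0.0%), and the smallest adjusted p was 0.469. At an unadjusted p below 0.05 limma called 887 probes, of which 433 were higher at day 30 (1.96% of those tested) and 454 were lower (2.06%). The higher calls were 48.8% of the 887, and 37.7% of the 910 calls made on the deposited normalised values. The equal-variance test of the study's methods, which does not share the spread between probes as limma does, also gave 0 probes after Benjamini-Hochberg adjustment and 927 before it. With 3 against 3 the exact permutation test cannot give a two-sided p below 0.1, so sizes and the separation of the arrays are described here. All 3 day 30 values lay above all 3 control values at 1112 probes (5.04%) and below them at 916 (4.15%). With 20 possible splits of the arrays 3 against 3, shares near these would be met with no difference between the groups. The separation of a single probe is thus a description and not a call. A difference of at least 2-fold together with such separation was found for 12 probes that were higher and 124 that were lower. The median log2 difference of all probes was 0.02, and the middle 90% of probes lay between -0.30 and 0.30. No source says which mice shared a litter or cage, so the p-values measure the spread between these mice.

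The 6 arrays had medians between 92.1 (day 30 mouse 3) and 127.1 (control mouse 3) before normalisation, and single mice stood apart in genes of particular tissues. Control mouse 1 had high signals of pancreatic enzymes, control mouse 3 had high signals of immunoglobulin segments and duodenal enzymes, day 30 mouse 1 had more squamous keratin signal than the other day 30 mice, and parietal cell genes were low in control mouse 3 and day 30 mouse 2. Correlations of log2 signals were 0.933 to 0.956 among the controls, 0.959 to 0.973 among the day 30 mice and 0.925 to 0.983 between the groups. Gastric markers were high on all 6 arrays: Psca read 32080 to 46340 and Ctse, the gastric protease cathepsin E, 3713 to 7185. Probes for the other antral markers gastrin, somatostatin, Muc5ac and trefoil factors could not be named here and were not analysed. The Y-linked gene Eif2s3y was bright in day 30 mouse 3 alone, and the part of sex in the comparison was not tested.

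**Figure D1:**
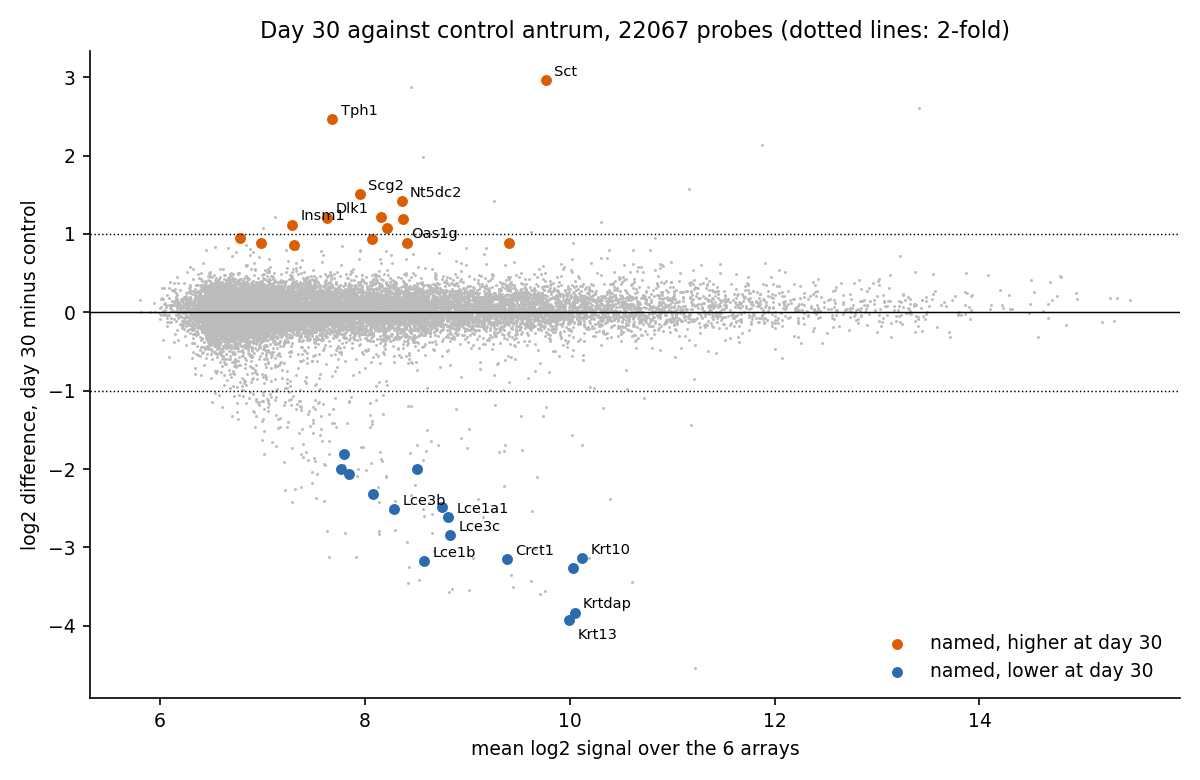
Log2 difference between day 30 and control (vertical axis) against the mean log2 signal of the 6 arrays (horizontal axis), 1 point per probe, for the 22067 probes compared. Dotted lines mark a 2-fold difference; orange points are the 15 named genes that were higher at day 30 and blue points the 15 that were lower, and the lower side holds the larger differences.

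Sct and Tph1, genes of hormone and amine production that were named from the study's day 90 lists, had the largest named differences on the higher side. Sct, which encodes the duodenal hormone secretin, read 193, 129.7 and 1217 in the controls and 1420.0, 3613 and 2813 in the day 30 mice. The groups did not overlap, but control mouse 3 lay close to day 30 mouse 1 while the other controls were far lower. The log2 difference was 2.96 ± 0.73, or 7.80-fold between geometric means (limma adjusted p = 0.579). Without control mouse 3, the array with high duodenal enzyme signals, it was 3.94 and passed the limit (limma adjusted p = 0.0207). With any other mouse left out it lay between 2.33 and 3.35 and did not pass. The part of duodenal tissue in the result was not tested. Tph1, the hydroxylase that limits how fast enterochromaffin cells make serotonin, read 82.0, 78.5 and 103.3 in the controls against 302.4, 919.6 and 404.9. Every day 30 mouse lay well above every control, and the log2 difference of 2.47 ± 0.35 was the one with the smallest p among the named genes (limma adjusted p = 0.469), 5.53-fold between geometric means. Without day 30 mouse 1 it was 2.81 with a limma adjusted p of 0.0159, and without day 30 mouse 2, the highest, 2.00.

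Gcg, the precursor of glucagon and of the glucagon-like peptides, read 133.2, 134.8 and 91.0 in the controls and 223.4, 172.1 and 253.7 in the day 30 mice, a log2 difference of 0.86 ± 0.20 (limma adjusted p = 0.545). This was the only one of the 15 named higher genes in which day 30 mouse 2 was not the highest of its group. Hdc, which makes histamine in enterochromaffin-like cells and mast cells, read 151.1, 185.9 and 119.3 against 203.7, 248.1 and 203.6, again with no overlap, at 0.54 ± 0.18. Ddc, the decarboxylase of the serotonin and dopamine pathways, differed by 0.68 and overlapped. Calca, the calcitonin gene, differed by 0.31 ± 0.14 but passed the signal limit on none of the 6 arrays. Its second probe, named from the study's tables, differed by 0.17 and overlapped. Among members named without the study's tables, the 3 peptide hormone genes had a median of 0.00. Of the 3, 1 (Calca) was higher without overlap (against 4.52% of all genes named by identifier). Calca was compared only because of its signals at day 60 and day 90, so this count depends on those ages. The 4 genes of amine synthesis and handling had a median of 0.17, with 0 separated and 0 at an unadjusted p below 0.05. Most of these probes could be named only because the study listed them among the genes higher at day 90, so their direction here is not independent of these samples.

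Proteins of the secretory granule were next. Scg2, or secretogranin II, read 139.6, 152.0 and 147.9 in the controls and 238.9, 782.8 and 385.3 in the day 30 mice. The controls lay within a narrow band and the day 30 mice spread over a wide one, with a log2 difference of 1.51 ± 0.36 (limma adjusted p = 0.545). The promoter of Scg2, from 250 bases before to 50 bases after the start site, is shown because the gene is the granule protein with the largest separated difference among those named by number, and it carries a cyclic AMP response element, in capitals. The sequence is that of RefSeq (GRCm38.p6, chr1:79439977-79440276, minus strand), printed 5′ to 3′ on the gene's strand.
Scg2: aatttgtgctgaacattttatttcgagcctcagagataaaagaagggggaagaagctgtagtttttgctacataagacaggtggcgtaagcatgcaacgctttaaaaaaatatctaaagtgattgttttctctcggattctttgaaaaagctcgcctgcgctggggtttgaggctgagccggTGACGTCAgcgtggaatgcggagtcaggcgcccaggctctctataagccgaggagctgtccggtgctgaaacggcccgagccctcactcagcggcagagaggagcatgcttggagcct
The palindrome TGACGTCA, searched on both strands, starts 68 bases before the start site. It was found in 588 of 32851 promoters (1.79%), and in 2 of the 8 granule genes compared. A match of letters is a description of the window and says nothing of binding.

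Both probes of Chga and that of Chgb were named only from the study's day 90 tables, so their direction here is not independent of these samples. Chga, chromogranin A, read 504.9, 591.0 and 291.2 in the controls and 637.4, 815.9 and 788.5 in the day 30 mice, which did not overlap (0.75 ± 0.25, limma adjusted p = 0.999). Its second probe differed by 0.82. Chgb, chromogranin B, read 229.3, 96.6 and 314.4 against 307.9, 3686 and 381.1. Only day 30 mouse 2 stood out, the groups overlapped, and the log2 difference of 1.99 ± 0.85 was 0.84 without that mouse. Among the other granule proteins, the vesicle glycoprotein Sv2a read 114.7, 93.6 and 85.5 against 124.5, 163.5 and 166.5 (0.63 ± 0.17), and Pcsk1n, the inhibitor of prohormone convertase, differed by 0.33 ± 0.15 without overlap. Of the 8 granule genes that could be named without the study's tables, 4 were higher without overlap, 0 were lower, 3 had an unadjusted p below 0.05, and the median difference was 0.24. For all 5553 genes named in the same way, 4.52% were higher without overlap and the median was 0.00. A further 6 granule genes named by the study's tables, chosen there for being higher at day 90, had a median of 0.71. Leaving out control mouse 3 gave the 8 a median of 0.14, and leaving out day 30 mouse 2 gave 0.17.

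**Figure D2:**
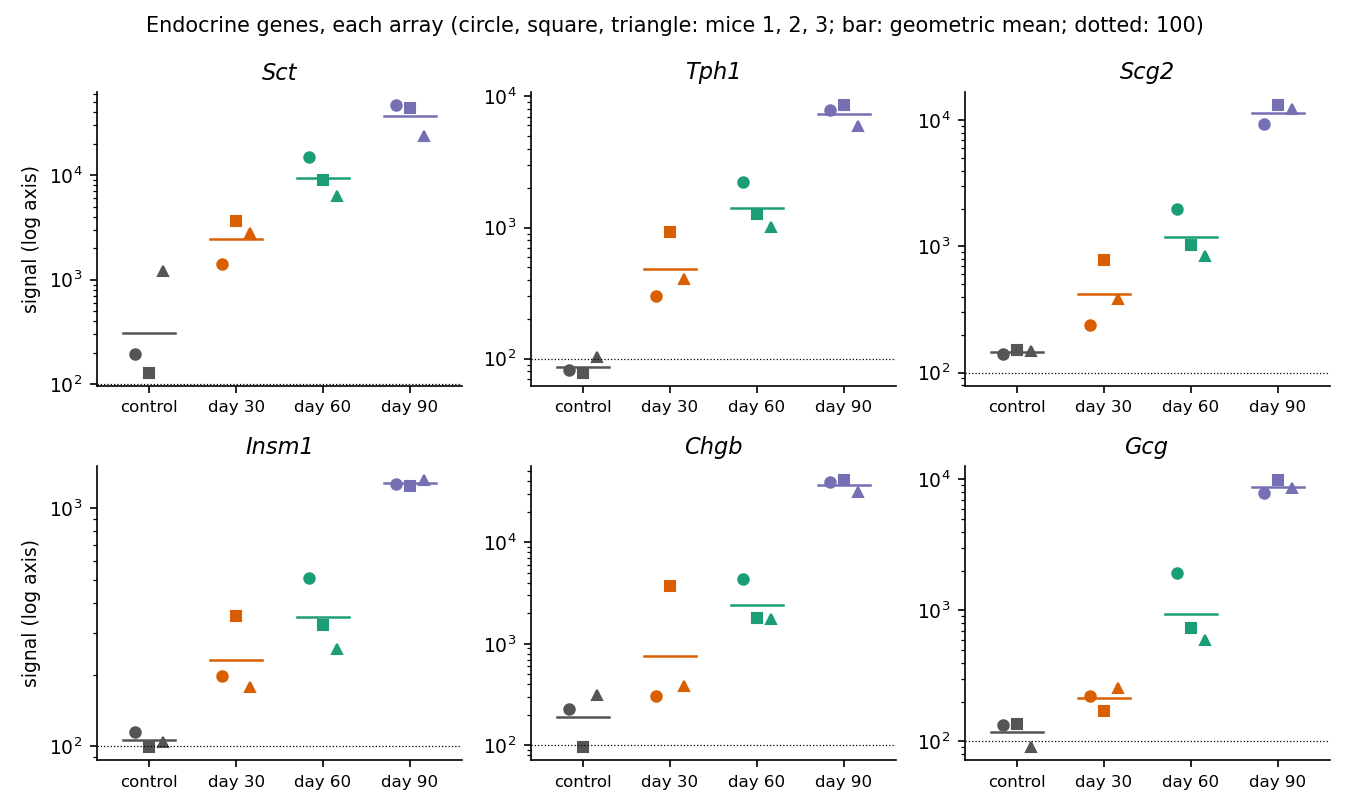
Signal (vertical axis, log scale, intensity units) of Sct, Tph1, Scg2, Insm1, Chgb and Gcg on each array of the 4 groups; points are mice, bars are geometric means of 3 mice and the dotted line is the signal limit of 100. The day 30 points lie above the control points except for Chgb, where day 30 mouse 2 at 3686 stands alone.

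Release and processing genes differed less. Of 15 genes for vesicle docking and exocytosis, 12 were above 0, 5 were higher without overlap (against 4.52% of all genes named by identifier) and 0 had an unadjusted p below 0.05, with a median of 0.14. Among the 5 were Syt1 and Syt4, calcium sensors of the vesicle, the fusion regulator Cplx2 and the vesicle protein Syn1, with differences from 0.25 (Syt1) to 0.43 (Syt4). When arrays were scaled to the 75th percentile in place of quantile normalisation, 1 gene of this list was higher without overlap. With a signal above 100 required on at least 3 of the 6 compared arrays, 10 genes of the list were left. Of those 10, 7 were above 0 and 3 were higher without overlap. The others were compared only because of their signals at day 60 or day 90, and the count of 5 depends on those ages. Snap25, a SNARE protein named by the study's tables, read 236.9, 283.3 and 232.9 in the controls and 317.8, 630.1 and 493.6 in the day 30 mice (0.89 ± 0.24, limma adjusted p = 0.655), while its other probe differed by 0.19. Of 5 prohormone processing genes 2 were above 0 and 0 were separated, with a median of -0.06 and differences from -0.22 to 0.27, the highest at the convertase Pcsk2. The carboxypeptidase Cpe, named only by the study's tables, differed by 0.39 with overlap.

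The transcription factors that specify endocrine cells were split. Insm1, a zinc finger repressor needed for endocrine differentiation, was named only from the study's day 90 tables. It read 115.0, 99.5 and 104.2 in the controls and 196.6, 352.1 and 178.2 in the day 30 mice (1.12 ± 0.24, limma adjusted p = 0.476). Its lowest day 30 value was well above its highest control value. Etv1, an ETS factor, read 284.8, 220.6 and 181.2 against 339.2, 432.8 and 315.7 (0.68 ± 0.20), and its other probes differed by 0.39 and 0.03. Myt1 read 208.8, 166.6 and 150.1 against 218, 263.9 and 237.3, separated by a small gap (0.46 ± 0.16). Nkx2-2 was separated too, at 0.55 ± 0.24, with only day 30 mouse 2 above the signal limit. Neurod1, which acts late in endocrine differentiation, did not follow them, with -0.04 ± 0.13. Of the 4 listed factors named by gene number, Etv1 and Nkx2-2 among them, 4 were above 0 with a median of 0.44. With array weights, without control mouse 3 or without day 30 mouse 2, 3 of them were above 0. With a signal above 100 required on at least 3 of the 6 compared arrays, only 1 of these factors, Etv1 (0.68), was left. The others were compared only because of their signals at day 60 or day 90, and the count of 4 depends on those ages.

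Several genes of nerve and endocrine cells completed the higher side. The main probes of Hap1, Dlk1, Gad2 and Sphkap were named only from the study's day 90 tables. Nt5dc2, a nucleotidase domain protein, read 141.2, 197 and 289.9 in the controls and 347.4, 804.9 and 551.8 in the day 30 mice (1.42 ± 0.33, limma adjusted p = 0.545), and its second probe, not above the limit in any control, ran the same way. Hap1, a partner of huntingtin in vesicle transport, read 242.4, 149.2 and 181.4 against 336.0, 766.7 and 324.8 (1.22 ± 0.33). In both genes day 30 mouse 2 was the highest and no mouse crossed the other group. Dlk1, an imprinted membrane protein of the Notch ligand family, read 145.1, 131.3 and 116.2 against 189.0, 575.1 and 251.7 (1.21 ± 0.35), but its second probe overlapped at 0.36. Gad2, which makes GABA, was at or below 81.8 in every control and read 88.3, 245.1 and 164.3 at day 30, at least 1.53-fold higher against the signal limit. Sphkap, an anchor of protein kinase A, was likewise below the limit in the controls and at least 1.72-fold higher. Amigo2, an adhesion protein, differed by 0.93 ± 0.24, and by 0.67 at its second probe.

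Day 30 mouse 2 was the highest of its group for 14 of the 15 named higher genes and for 149 of the 211 compared probes known only from the study's tables. Most of those 211 were listed for a higher level at day 90 of this same series. Of the 211, 67 were above all controls (against 5.04% of all probes), 0 were below them (against 4.15%), and the median was 0.23. The same mouse had low parietal cell signal and the highest large T antigen signal, and their part in its high values was not tested. Day 60 mice, compared directly with day 30 mice, differed at 79 probes at an adjusted p below 0.05 in limma's test (0.358%). Of the 15 named higher genes, 10 were represented by probes named only from the study's day 90 tables. Their higher level at day 60 was therefore partly set by the naming. All 15 had a higher mean at day 60. Gcg, among those 10, alone passed limma's test, with a day 60 mean signal of 1083 against 216.4 (2.14, limma adjusted p = 0.0457). Sct and Hap1 missed it narrowly, with 1.96 and 2.02 (limma adjusted p = 0.0542 for each). Among the other genes the study names, Etv1 (1.11, limma adjusted p = 0.0379) and Neurod1 (0.96, limma adjusted p = 0.0444) were also higher at day 60 than at day 30.

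Proliferation genes showed small differences, most of them above 0. Of 22 E2F target and DNA replication genes 19 were above 0, with a median of 0.11 against 0.00 over the genes named in the same way. In this list 2 were higher without overlap (against 4.52% of all genes named by identifier). Rpa3, a subunit of the single-strand binding protein RPA, read 285.6, 309.8 and 272.5 in the controls and 354.6, 437.9 and 358.3 in the day 30 mice (0.40 ± 0.14), and Gins3 of the replicative helicase was the only other one without overlap (0.25 ± 0.13). Of 18 mitosis genes 1, the spindle protein Tacc3, was separated (0.20 ± 0.13, against 4.52% of all genes named by identifier), and 0 had an unadjusted p below 0.05. All 18 were above 0, again with a median of 0.11. These signs rested on day 30 mouse 2: without it 10 of the 18 mitosis genes were above 0 with a median of 0.02, and 15 of the 22 replication genes with a median of 0.05. Without day 30 mouse 3, whose mitosis mean was the lowest of the 6 arrays, the mitosis median was 0.34. In the deposited normalised values 14 of the 18 were above 0. Spc25, a kinetochore subunit named by the study's tables, read 196, 203.4 and 213.1 against 345, 688.1 and 335.2 (1.08 ± 0.26, limma adjusted p = 0.567), while a second, dim probe named by its clone differed by 0.11. Cdkn2a, the INK4A/ARF locus, read 90.6, 91.9 and 93.6 against 104.9, 128.5 and 118.6 (0.35 ± 0.13), and the p53 target Cdkn1a differed by 0.01.

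The second group on the higher side was of interferon-induced genes. Oas1g, one of the oligoadenylate synthetases that sense double-stranded RNA, read 155.8, 323.5 and 207.2 in the controls and 418.1, 570.1 and 525.4 in the day 30 mice (1.19 ± 0.25, limma adjusted p = 0.469), and its second probe read 183.1, 235.7 and 153.4 against 326.5, 319.9 and 333.2 (0.80 ± 0.17). Oas1a read 404.6, 694.6 and 440.6 against 861.1, 989.2 and 922.5 (0.89 ± 0.20, limma adjusted p = 0.511). Control mouse 2 was the highest control for all 3 probes and still lay below every day 30 mouse. The promoters of both genes are shown because they share the response element read by the interferon-activated factors, GAAANNGAAA, whose 2 overlapping matches are in capitals (RefSeq, GRCm38.p6, 300 bases each, minus strand, 5′ to 3′; Oas1a at chr5:120907476-120907775, Oas1g at chr5:120887564-120887863).
Oas1a: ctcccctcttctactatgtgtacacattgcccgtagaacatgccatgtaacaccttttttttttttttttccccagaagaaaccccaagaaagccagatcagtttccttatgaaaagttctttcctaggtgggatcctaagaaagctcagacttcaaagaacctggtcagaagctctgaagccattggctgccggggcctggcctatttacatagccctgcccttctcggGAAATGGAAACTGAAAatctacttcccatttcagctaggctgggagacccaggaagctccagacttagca
Oas1g: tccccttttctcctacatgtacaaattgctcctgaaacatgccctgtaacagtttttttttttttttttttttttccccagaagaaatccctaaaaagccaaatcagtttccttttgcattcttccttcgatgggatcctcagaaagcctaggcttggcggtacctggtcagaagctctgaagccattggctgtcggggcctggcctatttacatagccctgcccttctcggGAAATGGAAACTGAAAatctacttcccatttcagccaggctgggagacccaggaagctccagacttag
The first of the matches starts 20 bases before the start site in Oas1a and 18 bases before it in Oas1g. The longest stretch identical in both promoters is 73 bases, and the genes are close copies, so a probe of one may also read the other.

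Irf7, the factor that amplifies the interferon response, read 112.2, 121.6 and 102.6 in the controls and 164.3, 159.2 and 158.4 in the day 30 mice, with a spread smaller than the gap between the groups (0.52 ± 0.13, limma adjusted p = 0.578). Irf9, a DNA-binding factor of the interferon response, read 218.8, 239.4 and 253.3 against 288.0, 406.2 and 266.7 (0.41 ± 0.18), with a narrow gap between the groups, and Ifit3, an antiviral RNA-binding protein, was separated at 0.22 ± 0.12. Of the 22 interferon genes compared, 6 were higher without overlap (against 4.52% of all genes named in the same way). In the list 1 was lower without overlap (Samhd1, -0.12, against 4.39%), 13 were above 0 and the median was 0.14. With 75th-percentile scaling 5 were higher and 0 lower without overlap, and without control mouse 1 the median was 0.03. GAAANNGAAA, searched on both strands, was found in 7 of the 18 listed genes with a promoter sequence (Ddx58, Gbp2, Ifit3, Igtp, Oas1a, Oas1g and Trim30a) and in 1079 of 27025 genes overall (3.99%). The median of the list was 0.34 at day 60 and -0.26 at day 90, both against the same controls, and all 3 day 90 mice lay below all controls for Oas1a (354.3, 209.1 and 198.1).

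**Figure D3:**
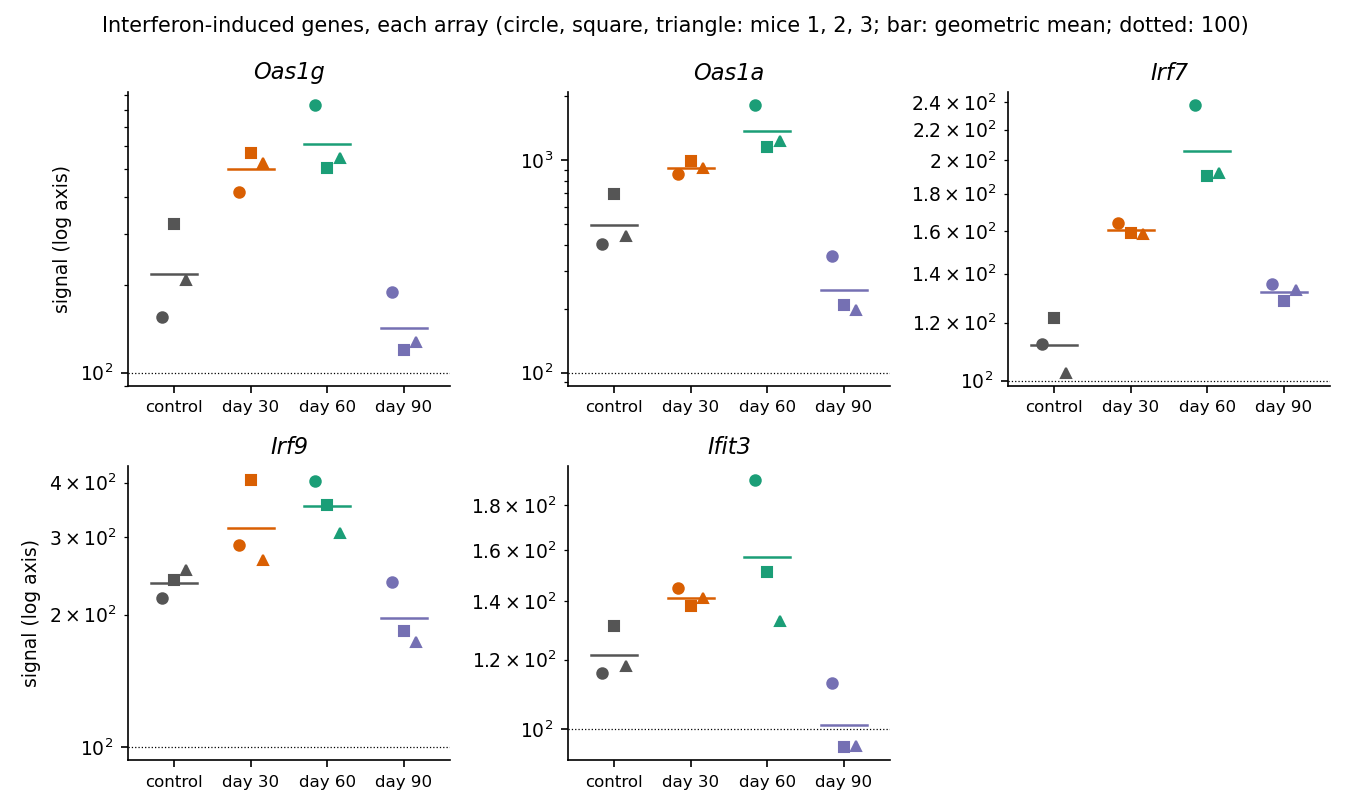
Signal (vertical axis, log scale, intensity units) of 5 interferon-induced genes on each array of the 4 groups; points are mice, bars are geometric means of 3 mice and the dotted line is the signal limit of 100. The 5 were picked from the 6 of 22 interferon genes that were higher at day 30 without overlap. By that choice the day 30 points lie above all control points in each panel. For Oas1a the day 90 points lie below the controls.

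On the lower side the differences were larger, and genes of squamous epithelium led them. Krt13, a keratin of inner squamous epithelium, read 2813, 5312 and 4234 in the controls and 1470, 139.4 and 86.7 in the day 30 mice, 15.3-fold lower between geometric means (-3.93 ± 0.88, limma adjusted p = 0.482). Krtdap, a secreted protein of differentiating keratinocytes, read 3462, 5083 and 3613 against 1991, 91.2 and 122.5 (-3.83 ± 0.97), and Krt10, the keratin of cells leaving the basal layer, 3190, 3656 and 3126 against 1584, 178.9 and 186.9 (-3.14 ± 0.71). In each of them day 30 mouse 1 lay nearest to the controls, and mice 2 and 3 had little signal. Mouse 1 was also the highest of its group for proteins of the cornified envelope. Rptn, or repetin, read 2639, 4234 and 3075 against 1582, 171.2 and 143.4 (-3.26 ± 0.77), and Lce1b, a late envelope protein, 882.2, 1345 and 1279 against 470.9, 65.5 and 67.3 (-3.17 ± 0.66).

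The other named members of this group were Crct1, Lce3c, Lce1a1, Lce3b, Lce1a2 and Sprr2d of the cornified envelope, Krt15 of the basal layer, the squamous metallothionein Mt4 and Calm4, a calcium-binding protein of keratinocytes, with differences between -3.15 (Crct1) and -1.81 (Sprr2d). Of these, Calm4 read 506.5, 745.5 and 583.4 in the controls and 236.4, 78.8 and 94.95 in the day 30 mice (-2.32 ± 0.37, limma adjusted p = 0.469). The Lce genes are near copies of each other, so their probes may not be separate measurements. Of the 33 squamous genes compared, 24 were lower without overlap (against 4.15% of all probes), 0 were higher, 24 had an unadjusted p below 0.05 and 2 were above 0. Those 2, named after their values were seen, were Serpinb3a and Sprr2a1, and Sprr2a1, which glandular epithelium of the gut also expresses, was the brightest gene of the list on all 6 arrays. The median difference of the 33 was -1.38, and it lay between -1.65 and -1.15 whichever mouse was left out. The list reached a median signal of 276.9, 361.5 and 308.5 in the controls and of 198.6, 88.2 and 94.95 in the day 30 mice. Above the limit of 100 were 31, 32 and 28 of the 33 genes in the controls, but 31, 10 and 15 in the day 30 mice.

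**Figure D4:**
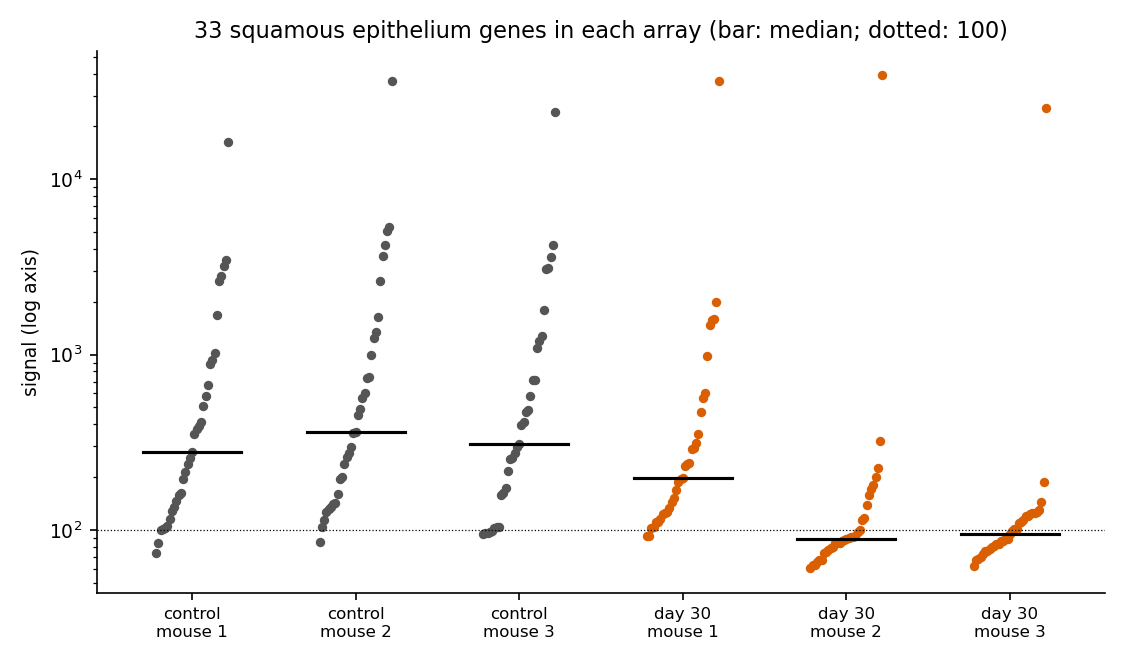
Signal (vertical axis, log scale, intensity units) of the 33 squamous epithelium genes in each of the 6 arrays, 1 point per gene in order of signal; black bars are medians and the dotted line is the signal limit of 100. Day 30 mouse 1, with a median of 198.6, resembles the controls more than day 30 mice 2 and 3, with 88.2 and 94.95.

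Day 30 mouse 1 was the highest of its group for all 15 named lower genes and for 104 of the 124 probes at least 2-fold lower without overlap. Leaving it out gave 83 probes with a limma adjusted p below 0.05, of which 80 were lower, all 15 named lower genes among them, and 17 were squamous genes of the list. Krt13 then differed by -5.18 (limma adjusted p = 0.000433). The 2 remaining day 30 mice were then set against 3 controls, and the part of forestomach or oesophageal lining in the samples was not tested. The squamous list was also below the controls at day 60 (median -0.83) and at day 90 (-0.94), against the same 3 control mice. At each of these ages 1 mouse lay nearer to the controls than the others. The mean log2 signals of the list were 7.18, 8.57 and 7.77 at day 60 and 8.24, 6.68 and 6.85 at day 90. In the controls they were 8.60, 9.05 and 8.78. No named lower gene differed between day 60 and day 30 at an adjusted p below 0.05 in limma's test, 0 of 15.

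Ltf, lactoferrin, an iron-binding defence protein of neutrophil granules and secretions, read 604.5, 634.1 and 1009 in the controls and 312.0, 142.9 and 136.6 in the day 30 mice (-2.0 ± 0.33, limma adjusted p = 0.469), again with mouse 1 the highest of its group. S100a9, of neutrophils and of squamous epithelium, read 236.5, 282.8 and 236.4 against 163.1, 174.5 and 98.2 (-0.83 ± 0.22), and the mast cell chymase Cma1 147.3, 201.1 and 148.6 against 124.1, 125.8 and 123.9 (-0.40 ± 0.15). Those were the 3 of 8 neutrophil and mast cell genes that were lower without overlap (against 4.39% of all genes named by identifier). A further 4 genes of this list, named by the study's tables, had a median of 0.18, with 1 higher without overlap. S100a8, also named by those tables, read 72.7, 85.0 and 209.1 against 80.4, 302.3 and 80.7, and the groups overlapped. Hspb1, a small heat shock protein that squamous epithelium also expresses, read 1960, 2809 and 2761 against 1549, 941.2 and 1076 (-1.09 ± 0.22). The part of squamous tissue in these differences was not tested.

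Immunoglobulin and antigen presentation genes were lower too, chiefly against 1 control mouse. Of 156 compared probes for immunoglobulin segments, 35 were lower without overlap (against 4.15% of all probes), 1 was higher (against 5.04%), 139 were below 0 and the median was -0.36. Their median signal was 88.6, 94.2 and 162.1 in the controls and 90.2, 81.8 and 85.6 in the day 30 mice, so control mouse 3 alone was high. Without it the median was -0.08 and 104 of 156 were below 0. Segments share sequence, and their probes are not separate measurements. All 5 MHC class II genes were below 0, with a median of -0.41 that was -0.22 without control mouse 3, when 1 of them was above 0. H2-DMb1, which loads peptides onto class II molecules, was the 1 of 5 without overlap (against 4.39% of all genes named by identifier). It read 128.0, 162.0 and 200.3 against 105.9, 118.2 and 98.7 (-0.58 ± 0.18). Xbp1, the secretory cell factor needed by plasma cells, read 6688, 6591 and 5986 against 5454, 4859 and 5765 (-0.26 ± 0.13).

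Of the muscle wall, 12 smooth muscle genes were all below 0 with a median of -0.19, and 3 were lower without overlap (against 4.39% of all genes named by identifier). These were Kcnmb1, a subunit of the calcium-activated potassium channel (149.3, 178.1 and 153.8 against 136.5, 121.6 and 106.0, -0.41 ± 0.15), Cav1 (-0.31) and Synm (-0.31). With 75th-percentile scaling 1 was, and without control mouse 1 the median was -0.10. Of 25 fibroblast and matrix genes 17 were above 0 with a median of 0.09. Of the 25, 1 was higher without overlap, a count near the share of all genes named by identifier (4.52%). This was the collagen Col5a1 (916.3, 1005 and 913.9 against 1119, 1408 and 1045, 0.32 ± 0.15). Of 8 genes of insulin-like growth factor binding and growth hormone action, 2 were above 0, with a median of -0.03 and a lowest difference of -0.23. In that list 1 was higher without overlap (against 4.52% of all genes named by identifier). This was the growth factor-binding protein Igfbp3 (116.5, 151.8 and 146.2 against 170.4, 192.5 and 177.3, 0.39 ± 0.15). In 16 genes of enteric neurons and glia 3 were higher without overlap (against 4.52% of all genes named by identifier), Stmn3 (0.41), Gap43 (0.35) and Syn1 (0.28), which nerve and endocrine cells share. In that list 2 were lower without overlap (against 4.39%), among them the neuronal RNA-binding protein Elavl4 (-0.23 ± 0.15).

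Genes of the gastric glands and of neighbouring organs gave differences that turned on single mice. Of 15 parietal and chief cell genes, 8 were above 0 and 0 were separated, around a median of 0.03. Atp4a, the catalytic subunit of the proton pump, read 11470, 17190 and 3931 in the controls and 16710, 3527 and 17330 in the day 30 mice. Without day 30 mouse 2 all 15 were above 0 with a median of 0.45, and without control mouse 3 only 3 were, with -0.29. Of 18 enterocyte genes 4 were lower without overlap (against 4.39% of all genes named by identifier), with a median of -0.28, and Slc5a1, the sodium-glucose transporter, read 190.7, 128.8 and 831.7 in the controls against 124.5, 110.0 and 99.9. Without control mouse 3 that median was -0.20, and it was -0.81 without control mouse 2. Pancreatic acinar genes had a median of -1.28, which was 0.59 without control mouse 1, where the elastase Cela3b read 25480 against 85 and 80 in the other controls.

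**Figure D5:**
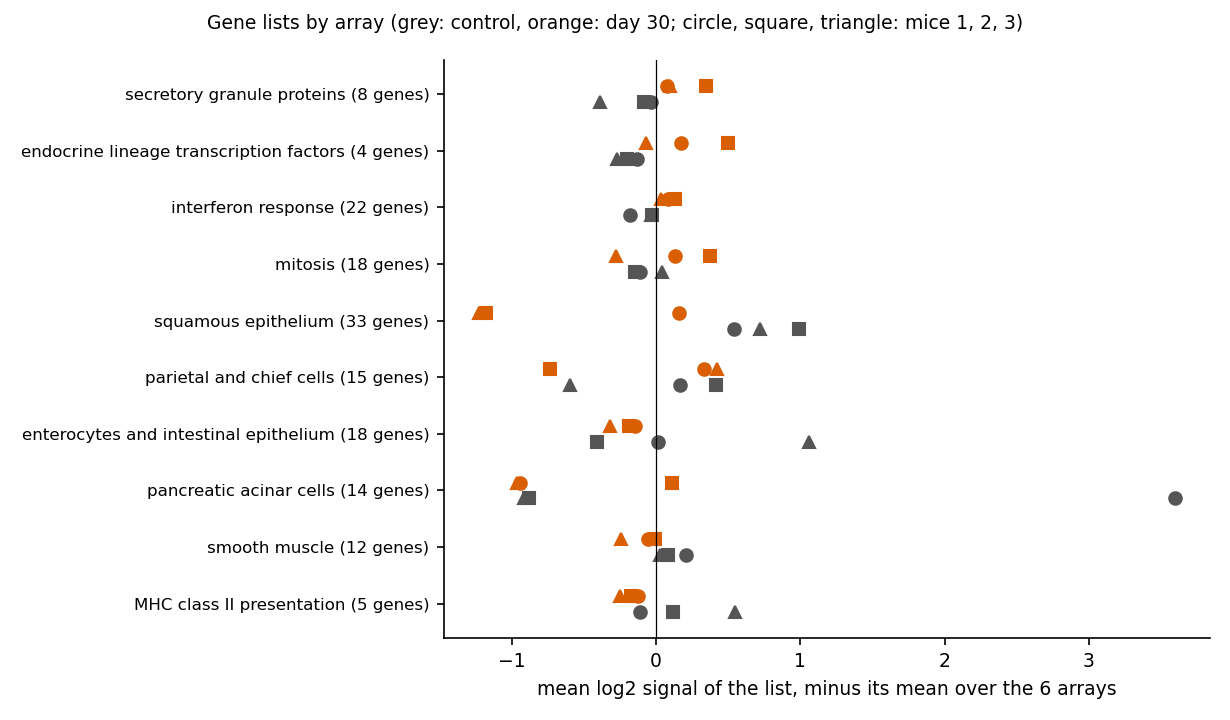
Mean log2 signal of 10 gene lists on each of the 6 arrays (horizontal axis), minus the mean of that list over the 6 arrays; grey marks are controls and orange marks day 30, with a circle, a square and a triangle for mice 1, 2 and 3. For squamous epithelium 2 day 30 mice lie far to the left of all others, while single controls stand apart in the pancreatic and enterocyte lists.

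Energy and ribosome genes also showed small differences. Of 45 nuclear genes of the respiratory chain 36 were above 0 with a median of 0.09. In that list 3 were higher without overlap (against 4.52% of all genes named by identifier). Among them were Sdhc of complex II (3014, 3382 and 2742 against 4007, 3440 and 4252, 0.36 ± 0.14) and Ndufs4 of complex I (0.33 ± 0.14). The list mean was lowest in control mouse 3 and day 30 mouse 2. Without control mouse 3 the median was -0.04, and without day 30 mouse 2 it was 0.25 with 44 of 45 above 0. Cytosolic ribosomal proteins had a median of -0.04, with 2 of 73 higher (against 4.52%) and 3 lower (against 4.39%) without overlap. The E2F and mitosis medians, at 0.11 each, stood close to that of the respiratory chain.

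Much of the array had no name here, and 74 of the 124 probes that were at least 2-fold lower without overlap were among the unnamed. The largest of them read 8752, 13380 and 13170 in the controls and 5360, 117.1 and 193.7 in the day 30 mice, with a log2 difference of -4.54 and with mouse 1 the highest of its group, as for the keratins. The largest unnamed difference on the higher side ran against that of the endocrine genes, with 126.6, 188.2 and 89.4 in the controls and 3080, 493.8 and 559.9 in the day 30 mice (2.88). Day 30 mouse 1 was its highest, and its mean was 135.0 at day 60 and 83.8 at day 90.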

How the data were processed

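Stomach antrum RNA of 12 mice was hybridised to Sentrix Mouse-6 Expression BeadChips, and 3 control and 3 day 30 arrays, grouped by their GEO titles, were compared. The authors collected the signals with BeadStudio and deposited a non-normalised table of probe intensities, which was used here, and a normalised table of linear intensities, used as an alternative. Their methods name vsn and quantile normalisation for different steps and do not say which made it, and the probe annotation is not given in the sources used here. The deposited non-normalised intensity values were background-corrected by normexp (offset 50), quantile-normalised over the 12 arrays, log2-transformed with a floor of 32, which 0 values reached. Probes above 100 on at least 3 arrays were kept, and 24049 of 46116 were not. Groups were compared with limma 3.58.1 in R 4.3.3, fitted on the 6 arrays, with Benjamini-Hochberg adjustment over all 22067 probes. The offset makes differences of dim genes too small, and 517 compared probes passed 100 on none of the 6 arrays. An "at least" fold is given only where all 3 arrays of a group were at or below 100, against 100.

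The table holds probe identifiers only. Of the probes, 9832 were named by a gene number within the identifier, read as an Entrez number and matched to RefSeq symbols (GRCm38.p6). Clone names gave 1050 and the study's supplementary tables on day 90 tumours 212. These tables list genes higher at day 90 and a set of transcription factors, some of which were not higher. Another 352 were antigen receptor segments and 34654 stayed unnamed. Of 88 probes that the supplementary lists also name, 86 gave the same gene. A gene is represented by its brightest probe. Named genes are the 15 largest differences in each direction with a symbol and no overlap (1 immunoglobulin gene was passed over), 11 genes that the study names, and the leading members of each list. The members, the 40 gene lists and the comparisons were chosen with earlier results of these data known. The fit was tested on simulated data. Alternatives were other background, scaling, filter and variance settings, the deposited normalised values, the methods' t-test, blocking on the mouse number, and each mouse left out in turn. Precision is limited by 3 arrays a group.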

Additional observations from a re-analysis of the deposited data

Results flagged for a closer look

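Oas1a lay on opposite sides of the controls at the youngest and the oldest age: every day 30 mouse lay above every control, and every day 90 mouse below, with a log2 difference between day 90 and control of -1.03. That difference between ages was not tested. For Gcg, Etv1 and Neurod1 the day 60 mice were higher than the day 30 mice in limma's direct test, by 2.14, 1.11 and 0.96 on the log2 scale, so the differences from the shared controls were not the same at both ages.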

How the results depend on the processing

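The count of probes with an adjusted p below 0.05 was 0 under all 13 alternatives that kept the 6 arrays, and 0 to 83 when 1 mouse was left out: 83 without day 30 mouse 1, 2 without control mouse 3 (Sct and 1 unnamed probe) and 0 without each other mouse. Probes with an unadjusted p below 0.05, 887 as reported, numbered 1392 without background correction, 569 with an offset of 16, 1716 with no filter, 361 with a signal above 200 and 1427 with 1 fit of all 4 groups (all but the last compared other numbers of probes), and 716 to 1277 when 1 mouse was left out. Separated probes at least 2-fold higher numbered 26 with the offset of 16 and 28 in the deposited normalised values against 12, and 11 to 23 when 1 mouse was left out, with 19 without control mouse 2 and 23 without day 30 mouse 1. Those at least 2-fold lower, 124 as reported, numbered 110 to 207 when 1 mouse was left out, with 207 without control mouse 2, and 101 to 147 under the alternatives that kept the 6 arrays. The labels do not say that mouse numbers pair the samples. Deviations of same-numbered mice correlated at 0.0479, -0.411 and -0.146, and those of differently numbered mice at -0.228 to 0.314. With 3 mice a group these values cannot decide whether the numbers pair mice. With a replicate block the counts were 0 adjusted and 875 unadjusted. Over 36 named genes and 19 alternatives, 681 values in all since Calca, Gad2 and Nkx2-2 did not pass the filter on the 6 arrays alone, 662 kept direction and side of the limit and 18 passed it newly, with 1 mouse left out in each. Neurod1 alone changed sign, to 0.02 without day 30 mouse 3, and lay between -0.10 and 0.02 when 1 mouse was left out. The list counts under the alternatives were chosen after seeing the data. The causes were not tested. Signals near 100 limit Gad2, Sphkap, Nkx2-2, Calca and the T antigen probes most.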

Other observations

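Of 16 hypoxia and glycolysis genes 9 were above 0, with a median of 0.02. In that list 1 was higher without overlap, a count near the share of all genes named by identifier (4.52%). This was the enolase Eno2 (200.3, 186.4 and 149.3 in the controls against 202.2, 209.3 and 217.8). Of 17 proteasome subunits 1 was higher without overlap (against 4.52%), with a median of -0.01. Endothelial genes (8) had a median of 0.06 and clock genes (6) of -0.09, with none separated. Among 8 imprinted growth genes, Peg3 (144.0, 132.2 and 134.7 against 156.7, 183.0 and 197.3) and Snrpn were higher without overlap, and Plagl1 was lower (against 4.52% and 4.39%), with a median of 0.01. Fabp4 of fat cells read 122.8, 107.7 and 109.9 against 84.3, 80.8 and 88.2.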
